A study of Mus musculus with 12 samples.

Results

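Peak lists of 3 histone methylation marks were examined in 4 stretches of the mouse genome that are named after genes of the cytoskeleton: Myh9, Plec, Sept9 and Mtss1. The stretches are fixed windows in the build mm9: chr15:77580000-77685000 for Myh9 (105 kb), chr15:76000000-76065000 for Plec (65 kb), chr11:117050000-117230000 for Sept9 (180 kb) and chr15:58770000-58920000 for Mtss1 (150 kb). They were selected on the widths of Control H3K4me1 and H3K4me2 peaks, of which they hold some of the widest, so those widths are given as a description, and a peak was a member when it overlapped a window. This gave 403 of the 134900 peaks in the 6 lists of the series. The cells were C2C12, an immortal mouse myoblast line, kept for 48 h (to day 2) in differentiation medium with horse serum. That medium held the LSD1 inhibitor S2101 at 10 µM in the S2101 group and the vehicle in the Control group. Each group has 1 library for H3K4me1, 1 for H3K4me2 and 1 for H3K4me3. The H3K4me1 and H3K4me2 libraries belong to experiment 1 and the H3K4me3 libraries to experiment 2, so mark and experiment cannot be told apart. There is no replicate, so no value below has an error between samples and no difference was tested. Read depth is unknown, so its part in the differences between lists was not tested.

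Lysine 4 of histone H3 carries up to 3 methyl groups, and the states mark different parts of a gene. H3K4me3 sits over the start sites of active genes, H3K4me1 over enhancers and on the flanks of promoters, and H3K4me2 at both. LSD1 (Kdm1a) removes methyl groups from the mono- and dimethylated states and cannot act on the trimethylated one. Myh9 encodes the heavy chain of non-muscle myosin IIA, the motor of stress fibres. Plec encodes plectin, a large linker that ties intermediate filaments to actin, microtubules and adhesion sites. Sept9 (Septin9 in RefSeq) encodes a septin, a GTP-binding protein that assembles into filaments along actin and membranes. Mtss1 encodes a membrane-bending protein that binds actin. In bulk chromatin, fewer cells with a mark and less of the mark per cell cannot be told apart.

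The windows are placed in mm9, whereas the RefSeq gene and promoter tables used here follow GRCm38.p6, so peaks could not be set against start sites, exons or introns. The names of the windows are therefore those of the rule, and the identity of the cells was not checked against marker genes. In the order of genes on GRCm38.p6, the nearest protein-coding neighbours are Apol8 and Txn2 for Myh9, BC024139 and Parp10 for Plec, Sec14l1 and Tnrc6c for Septin9, and Ndufb9 and Sqle for Mtss1. Whether a peak near the end of a window belongs to a neighbour was not resolved. RefSeq promoter sequences were available for Myh9 (1 start) and Septin9 (4 starts). H3K4me3 is known for marking promoters rich in CG, and Septin9 is shown with its richest and its poorest start because they differ most in this respect. Each sequence runs from 250 bases before to 50 after a RefSeq start (GRCm38.p6), 5′ to 3′ on the gene's strand, with every CG in capitals. These positions cannot be compared with the mm9 positions of the peaks.
Myh9, chr15:77842126-77842425, minus strand: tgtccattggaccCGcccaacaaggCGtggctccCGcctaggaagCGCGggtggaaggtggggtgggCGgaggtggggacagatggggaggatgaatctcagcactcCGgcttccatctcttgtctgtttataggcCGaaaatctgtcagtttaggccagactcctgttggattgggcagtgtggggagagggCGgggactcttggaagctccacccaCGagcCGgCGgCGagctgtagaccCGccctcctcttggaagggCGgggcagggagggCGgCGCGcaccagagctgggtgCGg
Septin9, chr11:117199411-117199710, plus strand: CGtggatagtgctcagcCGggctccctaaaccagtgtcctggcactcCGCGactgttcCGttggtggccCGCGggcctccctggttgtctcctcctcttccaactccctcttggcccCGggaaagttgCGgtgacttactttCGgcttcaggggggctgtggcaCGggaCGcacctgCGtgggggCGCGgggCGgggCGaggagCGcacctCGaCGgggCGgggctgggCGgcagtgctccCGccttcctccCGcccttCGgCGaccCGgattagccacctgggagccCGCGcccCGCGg
Septin9, chr11:117331465-117331764, plus strand: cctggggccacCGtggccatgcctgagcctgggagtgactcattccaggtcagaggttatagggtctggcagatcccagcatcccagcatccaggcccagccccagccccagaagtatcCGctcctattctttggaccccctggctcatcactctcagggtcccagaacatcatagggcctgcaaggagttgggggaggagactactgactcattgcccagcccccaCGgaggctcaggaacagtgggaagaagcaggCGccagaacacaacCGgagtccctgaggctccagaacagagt
The Myh9 promoter holds 19 CG, more than 71.9% of the 32851 RefSeq promoters of the same length (median 7). The Septin9 promoters hold 31 and 5, and the 2 that are not printed hold 18 and 15. The E-box letters CANNTG, which read the same on both strands, occur 1 time in Myh9, 2 times in the Septin9 promoter with 31 CG, 1 time in the one with 18 CG and not in the other two. They occur in 72.3% of all promoters. The CArG box, the element bound by serum response factor, was matched in none of the 5 and in 1.63% of all promoters.

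H3K4me1 covered more bases than the other marks in the Myh9, Sept9 and Mtss1 windows, and in all 4 windows the S2101 list covered fewer bases than the Control list. In the Myh9 window, H3K4me1 peaks covered 31606 bp in the S2101 list (31 peaks) and 51221 bp in the Control list (23 peaks). In the Plec window they covered 11776 bp (15 peaks) with S2101 and 23940 bp (21 peaks) in Control. In the Sept9 window they covered 37245 bp (61 peaks) with S2101 and 66311 bp (64 peaks) in Control. In the Mtss1 window they covered 37855 bp (47 peaks) with S2101 and 59560 bp (49 peaks) in Control. Peak numbers were close in Sept9 and Mtss1, and the peaks were narrower with S2101: over the 4 windows the median width was 584.5 bp with S2101 and 808 bp in Control. The whole lists differed alike, with medians of 384 bp with S2101 and 535 bp in Control. In Myh9 the S2101 list held more peaks over fewer bases.

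H3K4me2 covered less in the S2101 list in every window, and the ratio of S2101 to Control bases spread more between windows than for the other marks (0.204 to 0.678). It covered 6589 bp with S2101 and 19831 bp in Control in Myh9 (8 and 7 peaks), and 16400 bp with S2101 and 24175 bp in Control in Plec (9 and 4 peaks). In Sept9 it covered 11053 bp with S2101 and 28428 bp in Control (16 and 11 peaks), and in Mtss1 2954 bp with S2101 and 14474 bp in Control (6 and 10 peaks). Plec had the largest share of its window under H3K4me2 in either treatment (25.23% with S2101 and 37.19% in Control), and Mtss1 the smallest (1.969% and 9.649%, in the same order). H3K4me3 covered slightly more with S2101 in each window: 6372 bp against 5718 bp in Control in Myh9, 19001 bp against 17437 bp in Plec, 9349 bp against 9149 bp in Sept9 and 4218 bp against 3629 bp in Mtss1. The order of the windows by H3K4me3 coverage was the same in both treatments.

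**Figure D1:**
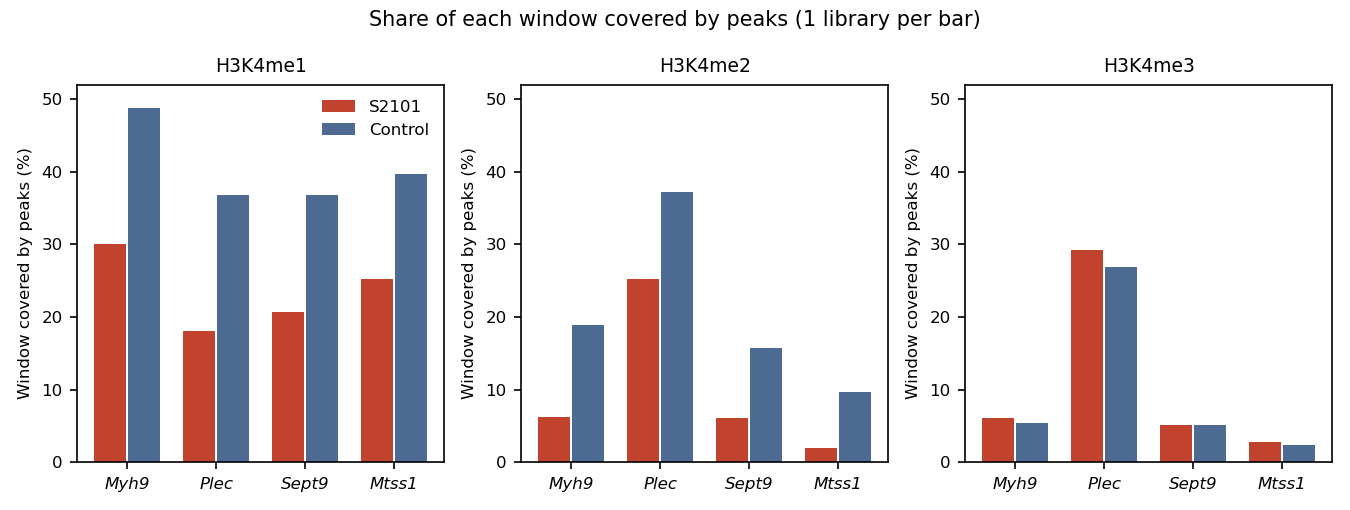
Share of each window covered by peaks, in percent, for each mark, with S2101 on the left and Control on the right of each pair; each bar is 1 library. H3K4me1 covered 30.1% of the Myh9 window with S2101 and 48.78% in Control, and Plec is the window with the most H3K4me3 (29.23% with S2101 and 26.83% in Control).

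The S2101 list came closer to the Control list for H3K4me1 in the windows than in the rest of the genome. The ratio of bases covered (S2101 over Control) was 0.617 in Myh9, 0.492 in Plec, 0.562 in Sept9 and 0.636 in Mtss1, and 0.589 for the 4 together, against 0.345 for the rest of the lists. Chromosome 15, which carries 3 of the windows, had the highest H3K4me1 ratio of the 19 autosomes (0.424 without the windows), and chromosome 11 had 0.362. Chromosome 15 also ranked 1 of 19 for H3K4me2 (0.548) and H3K4me3 (1.107), where the autosomes ran from 0.393 and 1.086 upwards. For H3K4me1, all 4 windows lie above the ratio of their own chromosome. Among 1585 tiles of 100 kb with at least 5000 bp of Control H3K4me1, the median ratio was 0.361 (quartiles 0.262 and 0.463), and 2.78% had a higher ratio than Mtss1, 3.85% than Myh9, 9.02% than Sept9 and 18.3% than Plec. The Control widths that chose the windows enter these ratios, and no test was made of them. The tiles were not matched to the windows for coverage by any mark, and the windows held 23940 to 66311 bp of Control H3K4me1. Among tiles picked below for likeness to the windows, chr15:83200001-83300000 had H3K4me1 over 20.4% with S2101 and 34.9% in Control. In the same order, chr8:87200001-87300000 had 27.2% and 52.4%, and chr14:26500001-26600000 had 17.3% and 36.3%.

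For H3K4me2 the windows lay on both sides of the rest of the lists. The ratio was 0.678 in Plec, above the 0.548 of the rest of chromosome 15, and only 5.01% of 2157 tiles exceeded it. It was 0.332 in Myh9 and 0.204 in Mtss1, both on the same chromosome, and 86.2% and 96.7% of tiles had a higher ratio. Sept9, at 0.389, lay below the 0.504 of the rest of chromosome 11. The rest of the lists had 0.467, and the 4 windows together 0.426. For H3K4me3 the ratios ran from 1.02 in Sept9 over 1.09 in Plec and 1.11 in Myh9 to 1.16 in Mtss1, against 1.10 for the rest of the lists and tile quartiles of 1.03 and 1.12.

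**Figure D2:**
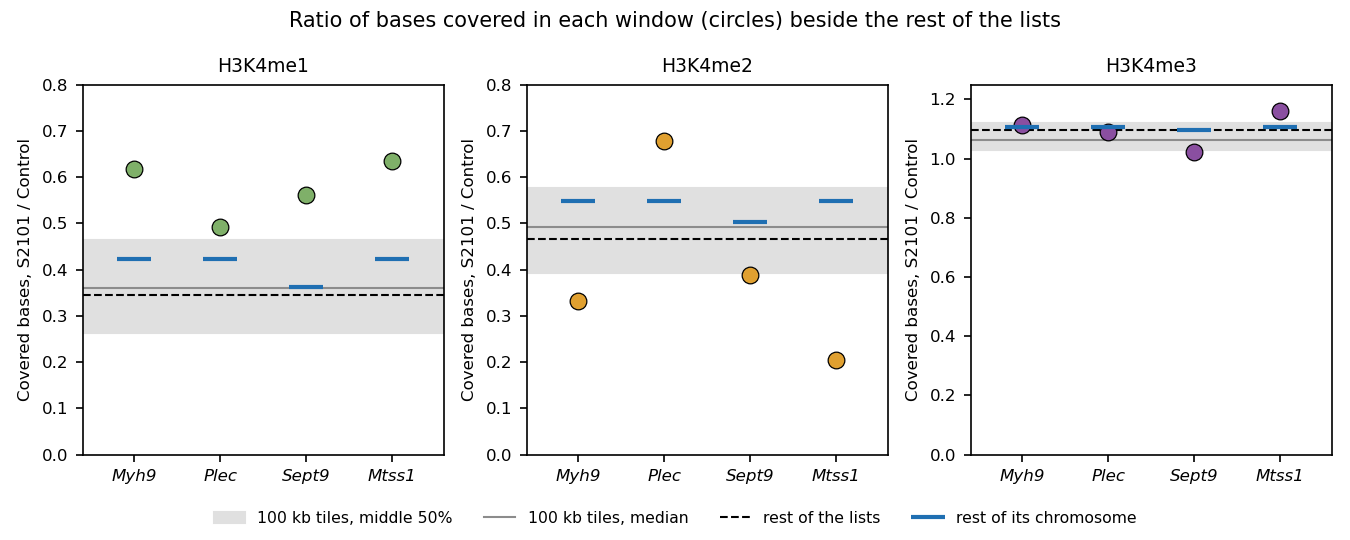
Ratio of bases covered by peaks, S2101 over Control, for each window (circles), for the rest of the chromosome it lies on (blue bars), for the rest of the lists (dashed line) and for 100 kb tiles (grey line, median; grey band, quartiles). The H3K4me1 circles all lie above the upper tile quartile of 0.463, whereas the H3K4me2 circles run from 0.204 (Mtss1) to 0.678 (Plec). The tiles were not matched to the windows for coverage.

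Wide Control peaks were overlapped by several S2101 peaks in the windows and elsewhere. Of Control peaks of at least 5000 bp, all 6 H3K4me1 and all 3 H3K4me2 peaks in the windows met 2 or more S2101 peaks, as did 14 of 15 H3K4me1 and 220 of 231 H3K4me2 peaks in the rest of the lists. A peak was said to have a counterpart when it overlapped a peak of the same mark in the other treatment by at least 1 bp. Of the 157 Control H3K4me1 peaks in the windows, 70 had no S2101 counterpart, where 67.0% of the whole Control list had none. The share with a counterpart was 55.4% (95% Wilson interval 47.6 to 63.0%, counting error only) in the windows and 32.9% in the rest of the list. By window it was 47.8% in Myh9, 52.4% in Plec, 54.7% in Sept9 and 61.2% in Mtss1. Here and below, the intervals take peaks as independent, though many stand side by side. They do not measure the difference from the rest of the list. Of the 157 peaks, 90 had under 50% of their bases covered with S2101, against 81.3% of the whole list. In the other direction, 12 of the 154 S2101 H3K4me1 peaks had no Control counterpart, against 27.5% of the whole S2101 list, and 6 of these 12 lay in Sept9 and 5 in Mtss1. For H3K4me2, 15 of 32 Control peaks had no counterpart (25.8% of the whole list) and 23 of 32 had under 50% of their bases covered (57.0%), while 1 of 39 S2101 peaks lacked a Control counterpart (3.94%). For H3K4me3, 1 of 12 Control peaks had none (1.30% of the whole list; under 50% covered: the same peak, against 1.50%), and all 9 S2101 peaks had one (8.43% of the whole S2101 list had none).

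The score is the caller's own value for a peak and ranks peaks within a list. The windows hold higher-scoring Control H3K4me1 peaks (median 303.7) than the rest of the list (182.1), and within the windows those with a counterpart had a median of 535.9 and those without 159.1. Set side by side at like score, the share with a counterpart was higher in the windows at each level, by less than over all scores. At scores of 100 to 200 it was 20.8% of 53 window peaks and 17.4% in the rest of the list. At 200 to 500 it was 55.6% of 54 (95% Wilson interval 42.4 to 68.0%, counting error only) and 44.0%. At 500 to 1000 it was 84.0% of 25 and 81.9%, and at 1000 or more it was all 25 and 97.7%. The covered part of the peaks was larger in the windows at each level, from 16.4% of bases against 11.2% at the lowest scores to 71.6% against 54.4% at the highest. For H3K4me2 the share with a counterpart was lower in the windows than in the rest of the list at each level: 12.5% of 8 peaks against 25.6% at scores of 100 to 200, 14.3% of 7 against 70.5% at 200 to 500, 88.9% of 9 against 96.9% at 500 to 1000, and 87.5% of 8 against 99.8% at 1000 or more. The covered part of the H3K4me2 peaks was also lower in the windows up to 1000 (9.69% of bases against 12.8%, 4.98% against 32.7% and 21.2% against 48.6%) and higher above it (66.0% against 59.3%). These peaks are few: the 95% Wilson interval at 200 to 500 ran from 2.57 to 51.3%, counting error only.

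**Figure D3:**
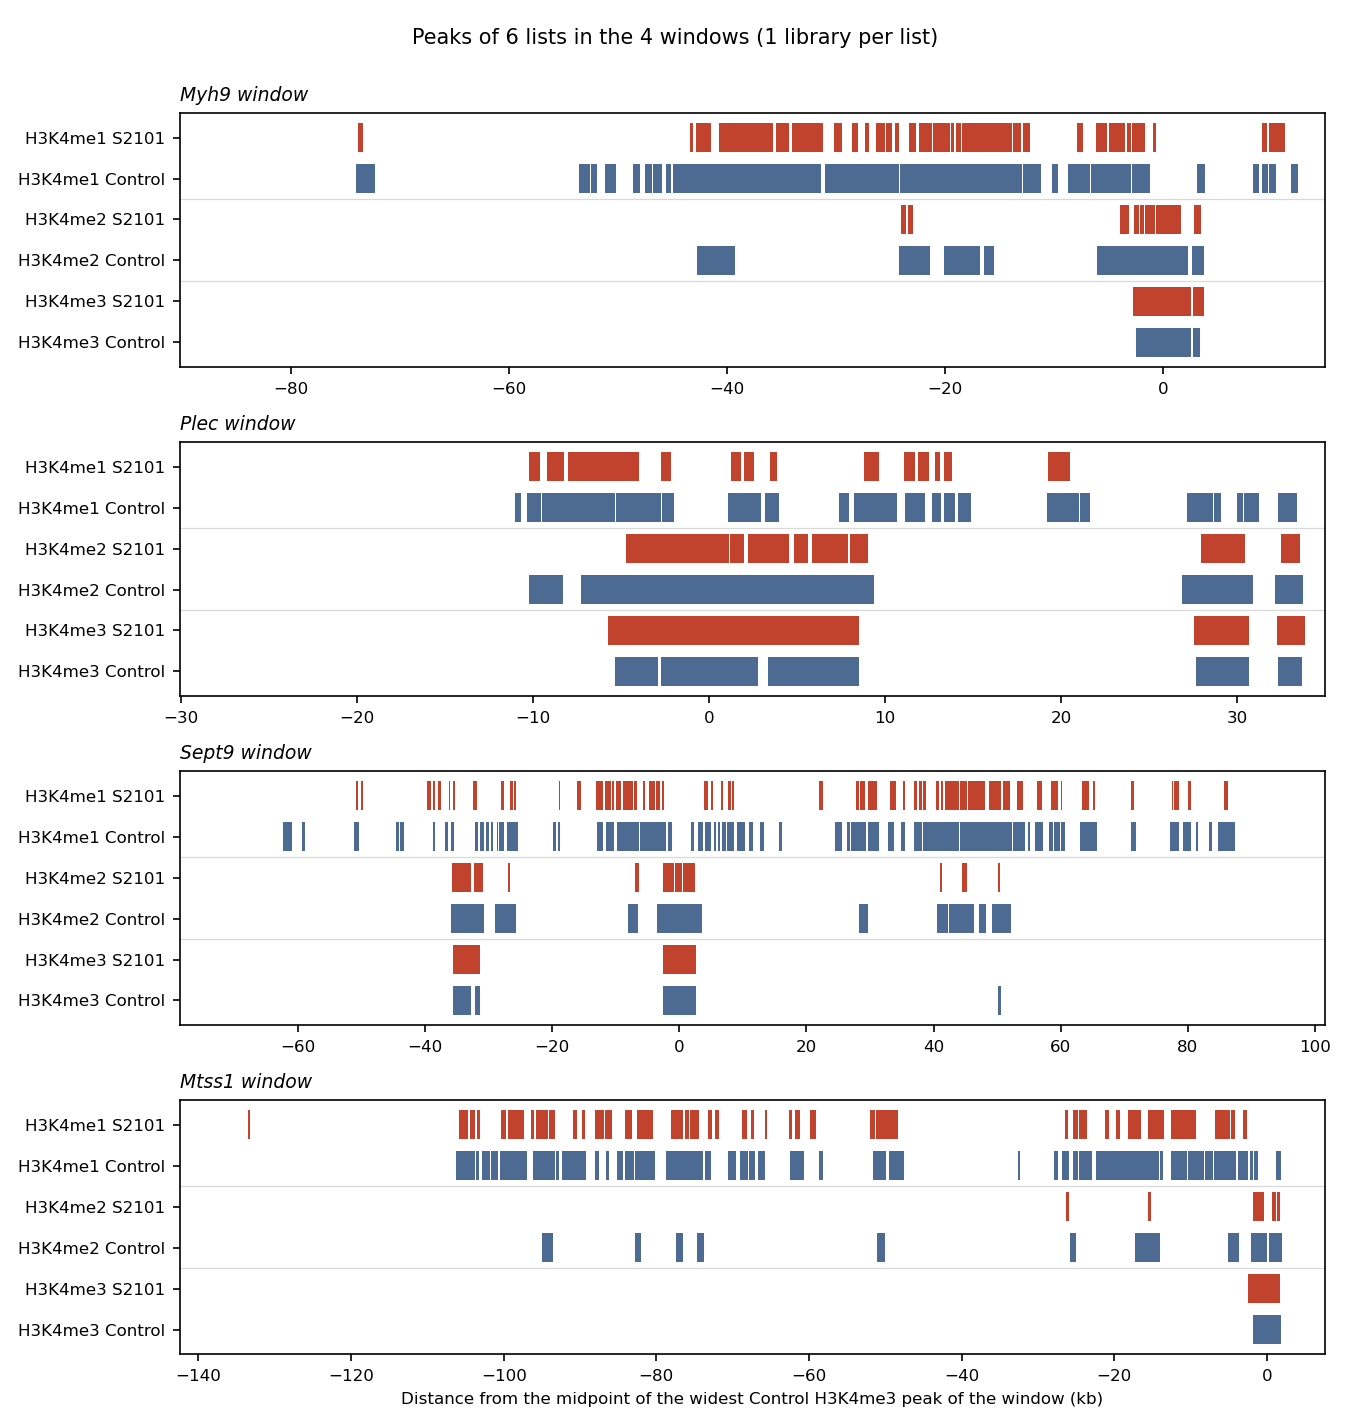
Peaks of each mark and treatment (S2101 above Control) in the 4 windows, drawn to scale against the distance in kb from the midpoint of the widest Control H3K4me3 peak of the window. Broad Control blocks of H3K4me1 lie mostly to the left of the H3K4me3 peak in Myh9 and Mtss1 and on both sides in Sept9, and S2101 peaks fill part of the same blocks as separate pieces.

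In the Myh9 window, Control H3K4me1 formed a nearly unbroken block to the low-coordinate side of a single H3K4me3 place. With S2101 the block was shorter and more broken. The widest H3K4me1 peak of the whole Control list, chr15:77626432-77638794 (12363 bp, score 3100), was followed by Control peaks at 77639183-77645956 (6774 bp), 77646043-77651641 (5599 bp) and 77651666-77657195 (5530 bp), which rank 8, 15 and 16 by width among 40432. When peaks up to 1000 bp apart were joined, the longest stretch was chr15:77626736-77658001 with S2101 (31266 bp, 21 peaks covering 77.8%) and chr15:77621576-77668984 in Control (47409 bp, 14 peaks covering 92.2%). Both were the longest joined stretch of their whole list. With S2101 the widest Control peak was covered over 84.32% by 7 pieces with a widest gap of 694 bp, and the following 3 over 49.81%, 75.69% and 97.09%. The S2101 peak at 77651680-77656341 (4662 bp, score 2308.32) had the highest score of all 20664 S2101 H3K4me1 peaks. The highest-scoring Control peak with no counterpart was the one directly before the widest, 77625212-77626418 (score 565.77), and the only S2101 peak with no Control counterpart was a weak one inside the H3K4me3 place, 77669220-77669517 (score 107.85).

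H3K4me2 in the Myh9 window was listed in both treatments around H3K4me3, and mostly in Control alone along the H3K4me1 block. The widest Control peak, chr15:77664998-77672410 (7413 bp, score 3100), was covered over 66.48% by 5 S2101 peaks, of which the widest was 77669474-77671797 (2324 bp). The 1117 bp Control peak beside it, 77672795-77673911, was covered over 692 bp. Of the other Control peaks, 77627426-77630896 (3471 bp, score 1049.43), 77650094-77653394 (3301 bp, score 739.34), 77653768-77654654 (887 bp) and 77664135-77664993 (859 bp) had no S2101 counterpart, and 77645958-77648740 (2783 bp) was covered over 969 bp. The first of these lies wholly inside the widest H3K4me1 peak, where S2101 H3K4me1 peaks at 77627355-77628708 and 77629403-77631060 overlapped it by 1283 bp and 1494 bp. The H3K4me3 place consisted of 77667374-77672764 and 77672895-77673875 with S2101, and of 77667636-77672726 and 77672888-77673514 in Control. Its main peak was 5391 bp wide with S2101 and 5091 bp in Control, and all of the Control peak was covered.

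The Plec window held the broadest H3K4me3 and H3K4me2 of the 4, and these marks lay largely on top of each other. Of H3K4me2 bases, 97% with S2101 and 72.1% in Control lay inside H3K4me3 of the same treatment. Of H3K4me1 bases, 67.8% with S2101 and 55.7% in Control lay outside H3K4me3 of either treatment. The widest H3K4me3 peak of the whole S2101 list was chr15:76024296-76038563 (14268 bp). In Control the same place was listed as 3 peaks, 76024720-76027128 (2409 bp), 76027280-76032797 (5518 bp) and 76033409-76038568 (5160 bp), with gaps that the S2101 peak bridges. When peaks up to 1000 bp apart were joined, the Control stretch measured 13849 bp and ranked 2 by length in its list. The S2101 stretch, still 14268 bp, then ranked 3 in its own. A further pair of H3K4me3 peaks stood at the high-coordinate end, 76057550-76060717 and 76062290-76063854 with S2101 and 76057694-76060715 and 76062353-76063680 in Control.

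In Plec, H3K4me2 was 1 peak in Control where the S2101 list had several. The third widest Control H3K4me2 peak of the genome, chr15:76022738-76039380 (16643 bp, score 3100), was covered over 76.94% by 7 S2101 peaks, beginning with 76025316-76029280 (3965 bp). That S2101 peak, with a score of 3124.15, ranked 3 by score and 10 by width among 24444 S2101 H3K4me2 peaks. The widest uncovered piece, 2578 bp, was the low-coordinate edge of the Control peak. The peaks over the further H3K4me3 pair were 76057974-76060474 (2501 bp) and 76062503-76063596 (1094 bp) with S2101 and 76056898-76060899 (4002 bp) and 76062157-76063757 (1601 bp) in Control, so each S2101 peak lay inside the Control one. The Control peak 76019796-76021724 (score 342.68) had no counterpart, and it was the only Control one that did not overlap H3K4me3.

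Plec H3K4me1 lay at the borders of the broad H3K4me3 place, within it and in further peaks beyond it. The peaks from 76041117 to 76050556 with S2101 and from 76040330 to 76051668 in Control overlapped no H3K4me3. The widest Control peak, chr15:76020523-76024708 (4186 bp, score 2287.26), ended just before the first Control H3K4me3 peak and was covered over 86.31% by 4 S2101 peaks. The widest S2101 peak, 76024168-76026065 (1898 bp, score 1187.21), lay across that border. Control peaks at 76031084-76033001 (1918 bp), inside the H3K4me3 place, and 76038274-76040282 (2009 bp), at its other border, were covered over 55.53% and 43.06%. No S2101 H3K4me1 peak lay beyond 76050556, whereas the Control list went on to 76063442, and the highest-scoring Control peak with no counterpart, 76062349-76063442 (score 475.2), lay over the last H3K4me3 peak. All 15 S2101 peaks had a Control counterpart.

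The Sept9 window held 2 H3K4me3 places and a long H3K4me1 field. The first place was listed as chr11:117092907-117096133 (3227 bp) and 117096243-117097195 with S2101 and as 117092974-117095714 (2741 bp) and 117096382-117097094 in Control. The second was 117125885-117131053 (5169 bp) with S2101 and 117125866-117131092 (5227 bp) in Control, and it is the only one of the main H3K4me3 peaks here that was narrower with S2101. A weak Control peak of 468 bp, 117178635-117179102 (score 101.93), had no S2101 counterpart and lay inside the widest H3K4me1 peak of the window.

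Sept9 H3K4me1 centred on that widest Control peak, chr11:117172659-117180868 (8210 bp, score 3100), the fourth by width in the list. It was covered over 81.83% by 5 S2101 peaks, and the widest of them, 117173916-117176541 (2626 bp, score 1888.19), ranked 3 by score in the S2101 list. Its neighbour 117168812-117172483 (3672 bp, score 3100) was covered over 75.3%. The joined stretch around them measured 11576 bp with S2101 and 20169 bp in Control. Closer to the second H3K4me3 place, Control peaks at 117118742-117122131 (3390 bp) and 117122373-117125554 (3182 bp) were covered over 79.73% and 66.59%. At the ends of the field, the first Control peak, 117066228-117067610 (score 614.4), is the highest-scoring without a counterpart, and the last, 117213234-117215834 (score 1391.6), was covered over 25.91%. The highest-scoring of the 6 S2101-only peaks was 117150516-117151152 (637 bp, score 289.44).

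Sept9 H3K4me2 was listed at both H3K4me3 places with S2101, in narrower pieces. The widest Control peak, chr11:117092576-117097790 (5215 bp, score 2937.9), was covered over 80.84% by 5 S2101 peaks, and the Control peaks 117124985-117127660 and 117127670-117132054 were covered over 1565 bp and 2942 bp. The widest S2101 peak was 117129557-117131020 (1464 bp). Over the wide H3K4me1 peaks, Control H3K4me2 peaks at 117168960-117170793 (1834 bp), 117170935-117174896 (3962 bp) and 117177694-117180116 (2423 bp) were covered over 348 bp, 731 bp and 342 bp. The peak 117156742-117158127 (score 469.44) is the highest-scoring of the 3 without a counterpart.

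The Mtss1 window had 1 H3K4me3 peak at its high-coordinate end and H3K4me1 over more than 100 kb on one side of it. The H3K4me3 peak was chr15:58909913-58914130 (4218 bp) with S2101 and chr15:58910588-58914216 (3629 bp) in Control. S2101 H3K4me1 peaks ran from 58778895 to 58909823 and Control peaks from 58806194 to 58914221, and the first S2101 peak was a lone weak one (276 bp, score 105.27). With S2101 no base of H3K4me1 lay within or beyond the Control H3K4me3 peak, whereas in Control 1083 bp lay within it. The widest Control H3K4me1 peak, 58891251-58898335 (7085 bp, score 3065.62), was covered over 58.22% by 5 S2101 peaks, the lowest share among the widest Control H3K4me1 peaks of the 4 windows. The second widest, 58833669-58838508 (4840 bp), was covered over 66.92%. The narrower Control peaks 58899791-58901946 and 58905416-58907524 were covered over 94.34% and 91.84%, by S2101 peaks of 2034 bp and 1945 bp. The highest-scoring Control peak with no counterpart was 58809506-58810651 (score 548.67), and of the 5 S2101-only peaks the highest was 58852557-58853315 (score 255.74).

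Mtss1 had the lowest H3K4me2 ratio of the windows. Of 10 Control peaks 7 had no counterpart, among them 58817385-58818830 (1446 bp, score 363.67) and 58861272-58862414 (1143 bp, score 277.78), both inside Control H3K4me1 peaks and overlapped by S2101 H3K4me1 over 1328 bp and 1143 bp. The widest Control peak, 58895146-58898344 (3199 bp, score 864.27), was covered over 435 bp. The pair over H3K4me3, 58910335-58912421 and 58912636-58914381, was covered over 1349 bp and 859 bp, by 4 of the 6 S2101 peaks. The widest S2101 peak was 58910623-58911368, with 746 bp. The only S2101 peak without a counterpart, 58886121-58886431 (score 100.57), stood at the lowest scores of the list.

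Combinations that include H3K4me1 with H3K4me2 covered fewer bases with S2101 in each window, and H3K4me2 with H3K4me3 alone covered more over the 4 windows together. Bases with H3K4me1 and H3K4me2 but no H3K4me3 made up 3515 bp with S2101 and 46800 bp in Control over the 4 windows. By window they were 953 and 14210 bp in Myh9, 251 and 5977 bp in Plec, 1620 and 16706 bp in Sept9 and 691 and 9907 bp in Mtss1, with S2101 and in Control in this order. Bases with H3K4me1 alone covered 108653 bp with S2101 and 139281 bp in Control, 70.8% and 61.4% of all marked bases. Bases with all 3 marks covered 4620 bp with S2101 and 14951 bp in Control, of which Plec held 2595 bp and 9466 bp. H3K4me2 and H3K4me3 without H3K4me1 covered 26443 bp with S2101 and 20443 bp in Control, 17.2% and 9.02% of marked bases. This combination was larger with S2101 in Plec (13310 bp against 7971 bp in Control) and Sept9 (7227 bp against 6355 bp), and smaller in Myh9 (3709 bp against 3785 bp) and Mtss1 (2197 bp against 2332 bp). In Control no base of any window had H3K4me1 with H3K4me3 and without H3K4me2; with S2101 there were 1694 bp, of which 1193 bp lay in Plec.

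**Figure D4:**
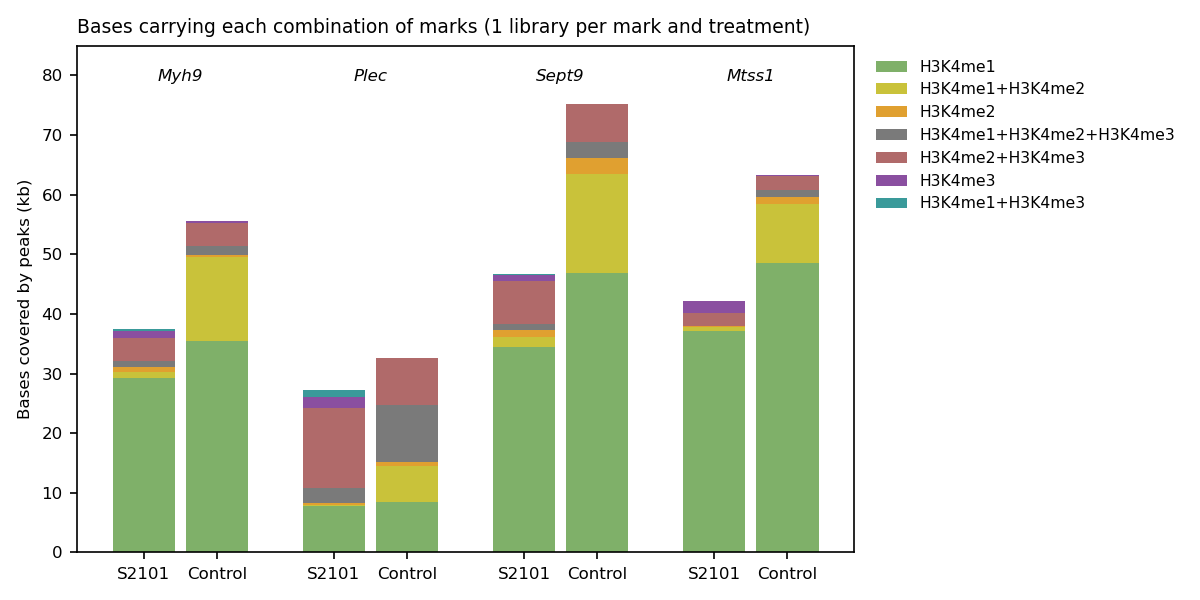
Bases in kb that carry each combination of marks in each window, stacked, with S2101 on the left and Control on the right of each pair. H3K4me1 and H3K4me2 without H3K4me3 covered 3.515 kb over the 4 windows with S2101, against 46.8 kb in Control.

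The share of Control bases also covered with S2101 was higher inside H3K4me3 for H3K4me2 and higher outside it for H3K4me1. The H3K4me3 area was taken as all bases with an H3K4me3 peak in either treatment. Of Control H3K4me2 bases inside it, 81.5% were also covered with S2101 (79.9% in Myh9, 84.1% in Plec, 85.2% in Sept9 and 60.2% in Mtss1). Outside it, 10.9% were (12.9%, 9.3%, 13.9% and 4.03% in the same order of windows). In the rest of the lists these shares were 58.5% inside and 10.5% outside. The share of Control H3K4me2 that lay outside was 27.1% in the rest of the lists. It was higher in Myh9 (69.6%), Sept9 (65.3%) and Mtss1 (74.7%), and lower in Plec (21.8%). The order of the windows by this share, from Plec to Mtss1, is the reverse of their order by H3K4me2 ratio. Since more was kept inside than outside in each window, a larger share outside lowers the ratio by arithmetic. The order is thus a description, and no cause was tested.

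For H3K4me1, outside the area, 55.0% of Control bases were also covered with S2101 (59.5% in Myh9, 57.9% in Plec, 48.6% in Sept9 and 57.6% in Mtss1), against 25.1% in the rest of the lists. Inside, 35.0% were (47.9%, 35.2%, 42.3% and 0), against 13.5%. Within 5 kb of the H3K4me3 area 57.5% were kept and beyond 5 kb 54.3%. With peaks of a score of 200 or more alone, the share inside was 22.6%. The windows and the rest of the lists were not matched by score here.

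**Figure D5:**
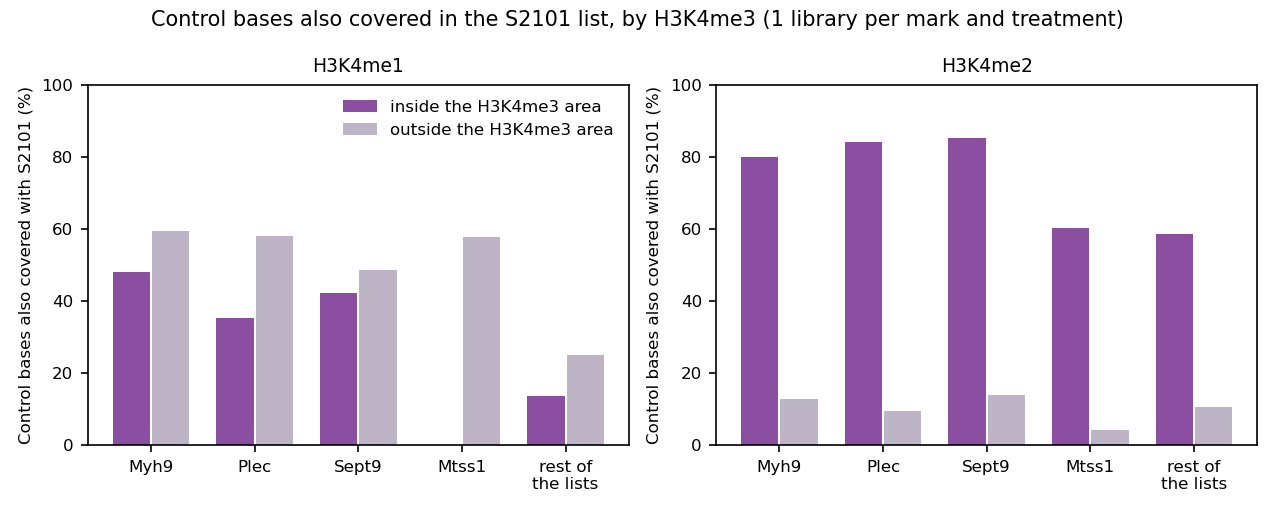
Percent of Control bases that were also covered in the S2101 list, inside and outside the area with H3K4me3 in either treatment, for H3K4me1 (left) and H3K4me2 (right), in each window and in the rest of the lists. H3K4me2 was kept over 60.2 to 85.2% inside and 4.03 to 13.9% outside, and H3K4me1 over 0 to 47.9% inside and 48.6 to 59.5% outside.

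The bases that had both H3K4me1 and H3K4me2 in Control and no H3K4me3 in either treatment were followed into the S2101 lists. There were 44615 such bases in the windows. With S2101, 68.6% of them had H3K4me1 alone, 6.66% both marks, 5.17% H3K4me2 alone and 19.5% neither. H3K4me1 alone was the commonest state in each window, at 74.7% in Myh9, 70.0% in Plec, 60.6% in Sept9 and 73.2% in Mtss1. In the rest of the lists, 25.7% of 3770802 such bases had H3K4me1 alone and 60.5% neither. H3K4me2 alone was left on 9.32% there and on 0.228% in Mtss1 to 7.4% in Sept9. The bases were picked for having both marks in Control, so with S2101 they could only keep or lose them. Bases with both marks with S2101 were not followed into the Control lists. The windows were chosen for wide Control peaks, and these shares were not matched by score. In the rest of the list, the covered part of Control H3K4me1 peaks rose from 11.2% of bases at the lowest scores to 54.4% at the highest.

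Other regions with a like pattern were sought among 10770 tiles of 100 kb, outside chromosome 18 and the windows, by the distance between the shares of bases covered in the 6 lists. The nearest to Myh9 was chr8:87200001-87300000, with H3K4me1 over 27.2% with S2101 and 52.4% in Control, at a distance of 9.69 percentage points. The closest tile to Plec, chr10:79600001-79700000, was 21.3 points away. The Plec window is 65 kb long and the tiles 100 kb, so the shares of a dense short window and a tile are not like for like. In bases, Plec held 11.78 kb of H3K4me1 with S2101 and 23.94 kb in Control, and the tile 10.5% and 23.7% of its 100 kb. For H3K4me2, Plec held 16.4 kb and 24.18 kb, and the tile 17.5% and 29.6%, in the same order. Sept9 was closest to chr14:26500001-26600000 (5.94 points) and chr11:117800001-117900000 (6.36 points), and Mtss1 to chr15:83200001-83300000 (6.91 points) and chr14:26300001-26400000 (7.71 points). The tile chr14:26500001-26600000 was among the nearest 3 for Myh9, Sept9 and Mtss1. It had H3K4me1 over 17.3% with S2101 and 36.3% in Control, beside 20.69% and 36.84% in Sept9.

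The rule names no width limit. The widest Control H3K4me1 peaks of Myh9, Sept9 and Mtss1 rank 1, 4 and 5 in their list, and the next below, chr2:93289537-93296437 (6901 bp), lies in none of the windows, nor do those ranked 2 and 3 (9225 and 8479 bp). The Plec H3K4me2 peak ranks 3 of 21447, between peaks of 17879 and 16336 bp that lie elsewhere. Plec's widest H3K4me1 peak ranks 43, and the widest H3K4me2 peaks of Myh9, Sept9 and Mtss1 rank 35, 182 and 1254, so the windows do not all stand out on both marks.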

How the data were processed

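Chromatin immunoprecipitation and sequencing gave the 6 peak lists; the inputs and H3 samples were not analysed here. Peaks were called with MACS within Galaxy, 1 list per library, per the file headers, and the score of each peak is as deposited by the authors. The submitters' processing notes name Bowtie2, deepTools and the build mm9. The settings of the caller, the input and the number of reads stand in no source used here, so nothing was scaled for depth, and library and treatment cannot be told apart. Many scores sit at 3100, and scores were used only within a list.

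Covered bases were counted within the windows, in 1-based coordinates, and a counterpart was any overlap of at least 1 bp. Tiles of 100 kb started at position 1 of each autosome. The windows, the rule for named peaks (per mark, the widest peak of each treatment, the S2101 peaks on the widest Control peak and the highest-scoring peak of 1 treatment only) and the comparisons were chosen with earlier results of these data known. Wide peaks, like-score shares, the split by H3K4me3 and the states of bases with both marks were added after the lists were seen, and further peaks were named with their values known. With 1 library per mark and treatment no test was made. Planned counts over other cytoskeletal genes and muscle markers need an mm9 annotation and were not made. Alternatives in score, list length, window edges, joining and overlap were tried. The interval functions gave the same values as bedtools 2.31.1 on 5 of 5 simulated list pairs. Python 3.11.15, numpy 2.4.6, scipy 1.17.1 and matplotlib 3.10.9 were used.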

Additional observations from a re-analysis of the deposited data

How the results depend on the processing

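No paired analysis was possible because each mark and treatment has 1 library, and without replicates or read counts the lists' depth limits every ratio. No alternative turned a direction within the windows. Of 82 alternative values 47 were counted as moved, and 3 moved by over 1.5 times. Of these 3, the first 2 were the share of Control peaks with a counterpart at a reciprocal overlap of 50% (29.9% for H3K4me1 and 9.38% for H3K4me2). The third was the share of Control H3K4me1 kept inside the H3K4me3 area at a score of 200 or more (22.6%). The alternatives were applied to the windows alone, and the rest of the lists was not recomputed. Whether the differences between the windows and the rest hold under these settings was therefore not tested. The causes were not tested.

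The H3K4me1 ratio was 0.513 at a score of 200 or more, 0.655 with lists of equal length, 0.584 with windows extended by 20 kb and 0.64 with peaks within 1000 bp joined. It was 0.58 without Myh9, 0.603 without Plec, 0.603 without Sept9 and 0.57 without Mtss1. In the same order of settings, the H3K4me2 ratio was 0.399, 0.414, 0.439 and 0.448, and 0.453, 0.328, 0.444 and 0.47 without each window. The H3K4me3 ratio was 1.04 with joined peaks and 1.1 without Sept9. The share of Control H3K4me1 peaks with a counterpart was 72.6% with lists of equal length and 72.1% with joined peaks. For H3K4me3 it was 100% at a score of 200 or more and 100% without Sept9.

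The alternatives on the H3K4me3 area were chosen after seeing the data. H3K4me1 kept inside it was 42.5% with the area widened by 1000 bp, and 33.1% without Myh9, 33.5% without Sept9 and 38.4% without Mtss1. Outside, it was 54.7% with the Control area alone, 48.6% at a score of 200 or more, and 53.4%, 54.8%, 58.4% and 53.8% without Myh9, Plec, Sept9 and Mtss1. H3K4me2 kept inside was 84.7% with the Control area alone, 69.9% with it widened, 73.9% at the higher score, and 78.9%, 80.2% and 83.7% without Plec, Sept9 and Mtss1. Outside, it was 12.9%, 8.82% and 7.88% under those settings, and 10.1%, 9.04% and 12.9% without Myh9, Sept9 and Mtss1.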

Other observations

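Some neighbouring H3K4me1 peaks in the windows were separated by very short gaps. Gaps of 50 bp or less numbered 15 beside 154 S2101 peaks and 29 beside 157 Control peaks (whole lists: 610 beside 20664 S2101 peaks and 2132 beside 40432 Control peaks). Of these, 11 of the 15 S2101 gaps lay within a Control peak, and 3 of the 29 Control gaps within an S2101 peak. For H3K4me2 there were 6 such gaps with S2101 and 3 in Control (whole lists: 1703 and 867, in the same order). All 6 lay within a Control peak, and 1 of the 3 within an S2101 peak. Gaps within a peak of the other treatment were not counted over the whole lists. Control peaks were wider in the whole lists too, so these counts do not set the windows apart.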
